A study of Mus musculus with 6 samples.

Results

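Transcripts of 8 transcription factor genes were compared between NK cell subsets of the mouse spleen. They are Ikzf1, Ikzf2, Ikzf3 and Ikzf4 of the Ikaros family, and Zbtb16, Zbtb32, Zbtb7b and Bach2, whose proteins carry a BTB domain. Members were taken by gene symbol, and all 8 were found, with 1 transcript cluster each, among 21442 genes measured. The signal of a gene is the average of its exon probe sets, on the log2 scale, and the 8 genes have 80 probe sets of 241383 placed. Zinc fingers bind DNA in 7 of the 8 proteins, whereas Bach2 carries a basic leucine zipper beside its BTB domain.

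The arrays hold 3 samples of Ly49C/I+ cells (Ly49G2-negative and Ly49C/I-positive) and 3 of Ly49G2+ cells (Ly49G2-positive and Ly49C/I-negative). Both subsets came from C57BL/6 splenocytes treated with anti-Thy1.2 and complement against T cells and grown for 7 days in 1000 IU IL-2. The gate took cells without CD3 and with CD122, the IL-2 receptor beta chain. Age and sex of the mice are not given in the sources used here, and the design text reads C57BL/5. Ly49C and Ly49I recognise class I MHC of this strain, for which the field calls their carriers licensed. No label ties an array to a mouse or a culture of its own, so p-values measure the spread of these 3 samples a subset, possibly a technical one. In such bulk samples, fewer cells that express a gene and less RNA per cell cannot be told apart.

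Ikaros family proteins bind DNA through fingers near the amino terminus and pair with each other through fingers at the carboxyl terminus. They recruit the NuRD chromatin complex and other corepressors, and they shape the development of most lymphocytes. BTB domains form dimers and bind corepressors such as NCOR and BCOR, or the ubiquitin ligase scaffold CUL3. PLZF, the product of Zbtb16, is known for directing innate-like lymphocytes such as NKT cells and innate lymphoid cell precursors. ThPOK, the product of Zbtb7b, is known for the CD4 fate of T cells, and BACH2 for restraining effector programmes by competing with AP-1 factors.

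On every array the NK cell markers averaged above the median signal of all probe sets (7.73 to 7.75). The mean of the measured T cell markers did so too, by less (8.03 to 8.48), but the single markers were spread widely. Thy1, Cd28, Lat and Cd247 had subset means of 9.26 to 12.54. Cd4, Cd5, Cd6, Cd8b1 and Themis lay below that median in both subsets, with means of 5.41 to 6.59. The 9 NK cell markers looked at had a mean log2 signal of 11.96 to 12.05 on the Ly49C/I+ arrays, against 11.93 to 11.97 on the Ly49G2+ arrays. Klrk1 (NKG2D) was the 1 marker of the 9 that passed, 1.16-fold higher in Ly49C/I+ cells (limma adjusted p = 0.0302). This call was lost in 9 of 17 alternative analyses, and 9.88% of all genes passed. Of 10 B cell markers 0 passed by limma, with 1 at an unadjusted p under 0.05, and 5 of them lay below the lower quartile of all genes. Of 14 measured T cell markers 4 were lower in Ly49C/I+ cells, namely Cd3e, Cd3d, Cd3g and Cd8a, and 0 were higher. Ly49G2+ replicate 2 lay apart from the other arrays of its subset, with the lowest array weight of the 6 (0.433), and Ly49G2+ replicate 1 carries a source name of the Ly49C/I+ subset, against its title. On the first principal component the Ly49C/I+ arrays lay between -11.8 and -8.84, against 8.02 for Ly49G2+ replicate 1 and 14.25 and 7.44 for the other Ly49G2+ arrays. The Cd3e signal was 8.31 to 8.37 on the Ly49C/I+ arrays, against 10.57 on Ly49G2+ replicate 1. Without Ly49G2+ replicate 2 the log2 differences were 0.43 for Zbtb16, -0.45 for Ikzf2, -0.43 for Zbtb32 and -0.17 for Bach2, and all passed (limma adjusted p = 0.00257, 0.00102, 0.000874 and 0.0458). Without Ly49G2+ replicate 1 they were 0.47, -0.45, -0.43 and -0.15, and Bach2 did not pass (limma adjusted p = 0.132).

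Among the 8 genes, 1 was higher and 3 were lower in Ly49C/I+ cells at a limma adjusted p under 0.05, and 4 did not pass. PLZF mRNA (Zbtb16) was 1.35-fold higher in Ly49C/I+ cells. Helios (Ikzf2) and Zbtb32 mRNA stood at 0.741 and 0.744 of the Ly49G2+ level, and Bach2 at 0.896. Over all 21442 genes 9.88% passed, 6.16% higher and 3.72% lower in Ly49C/I+ cells. The 8 genes all belong to the 10721 genes of at least median signal. Tested alone, those 10721 genes gave 1606 higher and 941 lower, larger shares than over all genes. The arrays of the subsets did not overlap for 6 of the 8 genes, against 27.8% of all genes. The median log2 difference, Ly49C/I+ minus Ly49G2+, was -0.11 over the 8 genes and -0.01 over all genes. The 8 genes were chosen with earlier results of these data known, so their counts beside those of all genes are a description only.

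**Figure D1:**
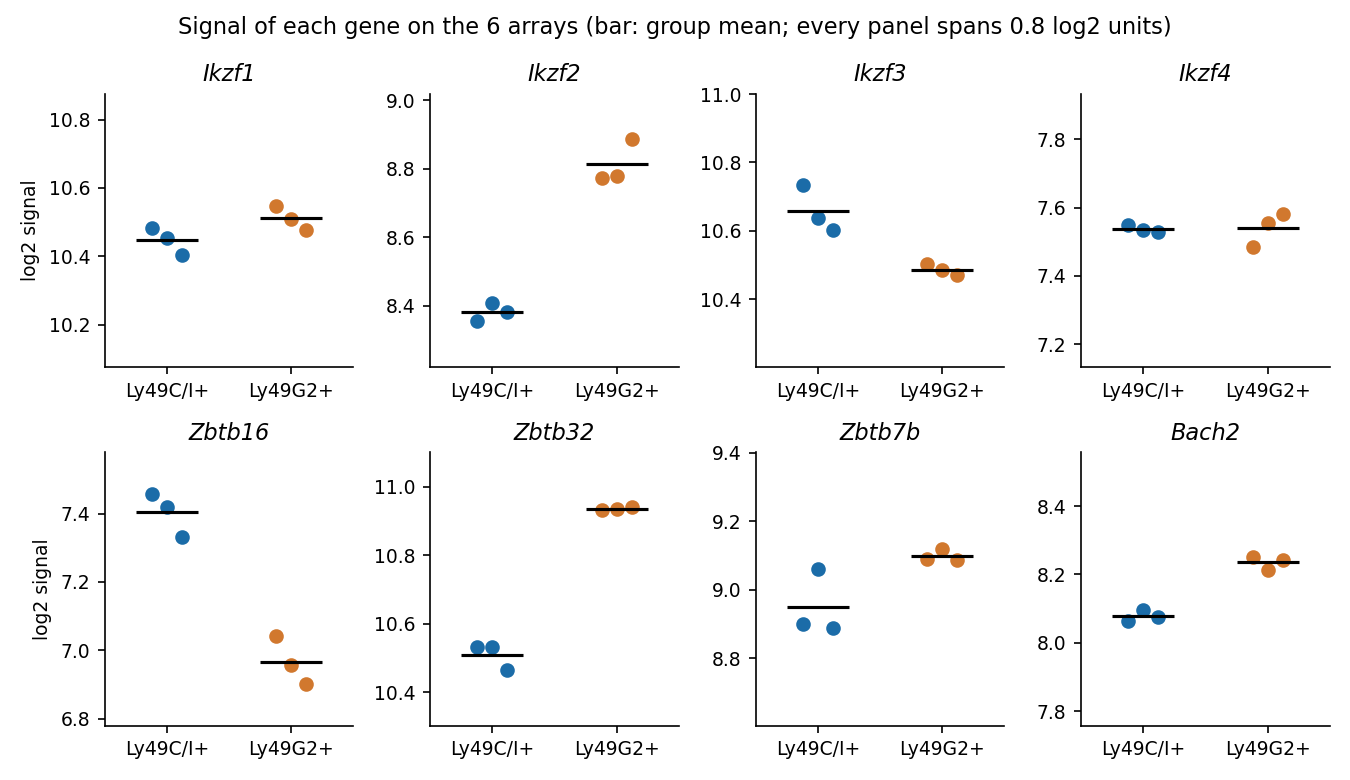
Log2 signal (vertical axis) of each of the 8 genes on the 3 Ly49C/I+ arrays (left) and the 3 Ly49G2+ arrays (right), with a bar at each group mean and the same span in every panel. Zbtb16 and Ikzf3 lay higher on every Ly49C/I+ array, Ikzf2, Zbtb32, Zbtb7b and Bach2 lay lower there, and Ikzf1 and Ikzf4 overlapped.

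Promoter sequences are shown for the called genes that have an entry in the RefSeq table (build GRCm38.p6), since Zbtb32 and Bach2 were both lower in Ly49C/I+ cells. Of the 8 genes 4 matched, with 7 entries in all. Each window runs 5′ to 3′ on the gene's strand, from 250 bases before to 50 bases after a transcription start. Capitals mark CCAAT, a common promoter element bound by NF-Y, or its reverse complement. The Zbtb32 windows span chr7:30598860-30599159 and chr7:30592893-30593192, both on the minus strand, and the Bach2 window chr4:32417185-32417484 on the plus strand.
Zbtb32, upstream start: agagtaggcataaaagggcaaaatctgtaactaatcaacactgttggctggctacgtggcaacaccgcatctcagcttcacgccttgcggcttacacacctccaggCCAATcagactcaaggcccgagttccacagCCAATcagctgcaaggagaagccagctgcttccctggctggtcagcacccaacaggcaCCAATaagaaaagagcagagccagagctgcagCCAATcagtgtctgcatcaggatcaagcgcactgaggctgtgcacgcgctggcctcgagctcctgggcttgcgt
Zbtb32, downstream start: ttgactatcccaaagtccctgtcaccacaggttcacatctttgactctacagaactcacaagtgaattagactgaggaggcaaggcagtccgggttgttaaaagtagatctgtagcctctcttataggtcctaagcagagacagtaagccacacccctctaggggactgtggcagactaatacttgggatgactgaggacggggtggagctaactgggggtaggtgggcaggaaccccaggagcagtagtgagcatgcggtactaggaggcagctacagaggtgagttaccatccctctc
Bach2: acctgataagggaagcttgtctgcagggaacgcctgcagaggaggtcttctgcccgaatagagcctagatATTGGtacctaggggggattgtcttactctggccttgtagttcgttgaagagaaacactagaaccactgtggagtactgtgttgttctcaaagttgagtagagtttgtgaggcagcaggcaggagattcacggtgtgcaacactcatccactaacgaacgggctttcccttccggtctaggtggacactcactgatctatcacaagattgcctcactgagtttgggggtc
The upstream Zbtb32 window held 4 CCAAT elements, all in the forward sense and none overlapping, the downstream window 0 and the Bach2 window 1. Across 32851 promoter windows of 300 bases, 37.4% held CCAAT on either strand. CCAAT was added to the search after the Zbtb32 sequence was seen. The Ikaros core TGGGAA, found in 25.6% of windows, and the AP-1 element TGANTCA, found in 7.81%, were searched on both strands and had no match in these 3 windows. TGGGAA occurred in 1 of the other 4 windows, at the upstream start of Zbtb7b. A match is a description of the letters and says nothing about binding in these cells.

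In the Ikaros family, Helios differed. Ikzf2 encodes Helios, a factor known from regulatory T cells. Its log2 signals were 8.35, 8.41 and 8.38 in Ly49C/I+ cells, against 8.77, 8.78 and 8.89 in Ly49G2+ cells. The 3 Ly49C/I+ arrays were all low, and the gap between the subsets was wider than the range within either. Means were 8.38 ± 0.027 in Ly49C/I+ cells, against 8.81 ± 0.063 in Ly49G2+ cells (SD, n = 3 each). The log2 difference was -0.43 ± 0.048 (SE), with a limma adjusted p of 0.000501, and it passed in all 17 alternative analyses. Of all genes, 1.58% had a larger absolute difference.

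The 12 probe sets of Ikzf2 all lay lower in Ly49C/I+ cells, by log2 values of -0.73 to -0.09, and for 7 of them the arrays did not overlap. The share of all probe sets without overlap was not computed. Such counts, here and for the genes below, therefore describe the probe sets without a background. The largest difference was at the first in ID order, with 9.59, 9.46 and 9.65 in Ly49C/I+ cells and 10.44, 10.34 and 10.12 in Ly49G2+ cells. The smallest was at the 9th, with 10.53, 10.61 and 10.65 in Ly49C/I+ cells and 10.64, 10.65 and 10.78 in Ly49G2+ cells. The probe sets thus varied in size but not in sign, and a test of unequal differences along the gene (limma's diffSplice, F test) did not pass (adjusted p = 0.785). The median of the 12 differences was -0.50. Taking the median signal over the probe sets on each array, in place of the mean, gave a log2 difference of -0.60 in place of -0.43.

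Aiolos, encoded by Ikzf3 and known from late lymphocyte maturation, lay just outside the threshold. Ikzf3 signals were 10.73, 10.64 and 10.60 in Ly49C/I+ cells, against 10.50, 10.49 and 10.47 in Ly49G2+ cells. All 3 Ly49C/I+ arrays were higher, without overlap. The log2 difference was 0.17 ± 0.048 (SE), with a limma adjusted p of 0.0515 and a 95% interval of 0.06 to 0.28. It passed in 5 of 17 alternative analyses, over which the adjusted p ran from 0.0103 to 0.320.

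Ikzf3 was the 1 gene of the 8 whose probe sets differed unequally between the subsets, with a diffSplice F of 5.78 and an adjusted p of 0.0031. Of all transcript clusters 2.99% passed that test. The 4th of its 10 probe sets in ID order stood out. It read 8.89, 8.86 and 8.54 in Ly49C/I+ cells and 8.03, 7.93 and 7.95 in Ly49G2+ cells. The difference on the log2 scale was 0.79 ± 0.11 (SE), a ratio of 1.73. Its difference exceeded the mean of the others by 0.69 (diffSplice adjusted p = 0.000142). That test treats the probe sets of a gene as separate readings, though all come from the same arrays. Tested on its own, the 4th probe set did not pass (limma adjusted p = 0.0862). The other 9 differed by -0.22 to 0.24, with a median of 0.14, and 8 of them were above 0. The last, the 10th, lay 0.43 below the mean of the others (diffSplice adjusted p = 0.0395), with overlapping arrays. The F test missed the threshold without Ly49C/I+ replicate 2 (adjusted p = 0.0631), without Ly49G2+ replicate 1 (0.0525) and without Ly49G2+ replicate 2 (0.133). The files pair no probe set with an exon, so which part of Aiolos mRNA the 4th covers was not analysed here.

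**Figure D2:**
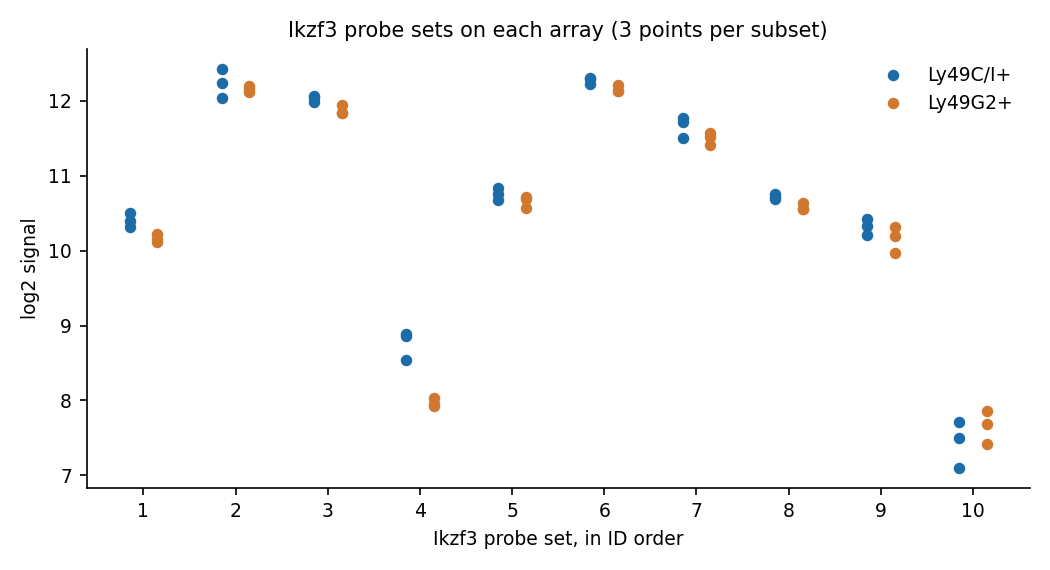
Log2 signal (vertical axis) of the 10 Ikzf3 probe sets in ID order (horizontal axis), with 3 Ly49C/I+ arrays to the left and 3 Ly49G2+ arrays to the right of each position. The 4th probe set separates the subsets most, between 8.54 and 8.89 in Ly49C/I+ cells as against 7.93 to 8.03 in Ly49G2+ cells.

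Ikaros itself and Eos did not differ beyond the spread. Ikzf1, which founds the family and is needed for lymphocyte development, read 10.48, 10.45 and 10.40 in Ly49C/I+ cells and 10.55, 10.51 and 10.48 in Ly49G2+ cells. These ranges overlap, and the log2 difference was -0.06 ± 0.045 (SE, limma adjusted p = 0.458), with a 95% interval of -0.16 to 0.04. Its probe sets went both ways, 5 above and 9 below 0. Ikzf4, the gene of Eos, a partner of FOXP3 in regulatory T cells, read 7.55, 7.53 and 7.53 in Ly49C/I+ cells and 7.49, 7.55 and 7.58 in Ly49G2+ cells. The log2 difference was -0.0028 ± 0.044 (SE, limma adjusted p = 0.981), with a 95% interval of -0.10 to 0.10, and its sign changed in 5 of 17 alternative analyses. The interval covers ratios of 0.932 to 1.07 for Ikzf4 and of 0.893 to 1.03 for Ikzf1.

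**Figure D3:**
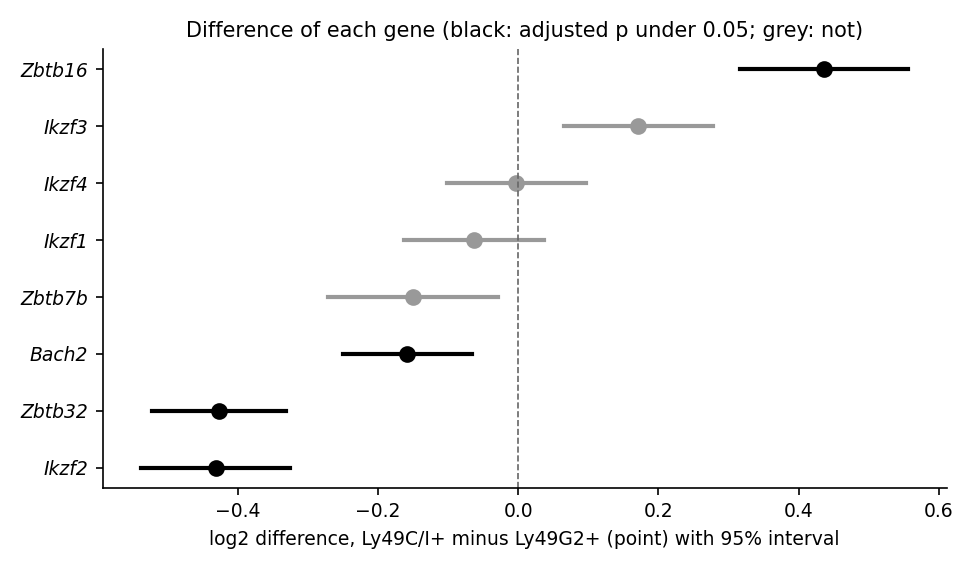
Log2 difference, Ly49C/I+ minus Ly49G2+ (horizontal axis), of each gene with its 95% interval from limma; black marks an adjusted p under 0.05 and grey one above it. Zbtb16 lies at 0.44, Ikzf2 and Zbtb32 at -0.43 and Bach2 at -0.16, and the intervals of Ikzf1 and Ikzf4 include 0.

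Among the BTB genes, Zbtb16 was the one higher in Ly49C/I+ cells. Its log2 signals were 7.46, 7.42 and 7.33 in Ly49C/I+ cells, against 7.04, 6.96 and 6.90 in Ly49G2+ cells. Every Ly49C/I+ array lay above every Ly49G2+ array, with means of 7.40 ± 0.065 in Ly49C/I+ cells, against 6.97 ± 0.071 in Ly49G2+ cells (SD, n = 3 each). The log2 difference was 0.44 ± 0.054 (SE), with a limma adjusted p of 0.000898. It passed in 16 of 17 alternative analyses and missed the threshold with p-values taken by cluster out of the authors' deposited table (adjusted p = 0.0618, ratio 1.32).

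Zbtb16 has 7 probe sets, of which 6 were higher in Ly49C/I+ cells and 5 without overlap. The 5th in ID order differed most, with 7.50, 7.49 and 7.72 in Ly49C/I+ cells and 6.98, 6.11 and 6.63 in Ly49G2+ cells. The 7th, at 6.68, 7.41 and 6.64 in Ly49C/I+ cells and 6.87, 7.16 and 6.95 in Ly49G2+ cells, overlapped. Differences of the other 5 ran from 0.13 to 0.58. The diffSplice F test over the 7 did not pass (adjusted p = 0.182).

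Zbtb32 ran the other way. It encodes a BTB repressor known to restrain T cell activation and, in the mouse, to be needed for the proliferation of NK cells in viral infection. Its log2 signals were 10.53, 10.53 and 10.46 in Ly49C/I+ cells, against 10.93, 10.94 and 10.94 in Ly49G2+ cells. The Ly49G2+ arrays were nearly equal and all high. Means were 10.51 ± 0.039 in Ly49C/I+ cells, against 10.94 ± 0.0040 in Ly49G2+ cells (SD, n = 3 each). The log2 difference of -0.43 ± 0.043 (SE) had a limma adjusted p of 0.000318 and passed in all 17 alternative analyses. All 5 probe sets were lower on every Ly49C/I+ array, by -0.51 to -0.38, and the diffSplice F test along the gene did not pass (adjusted p = 0.874).

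Bach2 was lower in Ly49C/I+ cells by a smaller step. Its log2 signals were 8.06, 8.10 and 8.08 in Ly49C/I+ cells, against 8.25, 8.21 and 8.24 in Ly49G2+ cells. No array overlapped, and the log2 difference was -0.16 ± 0.041 (SE), with a limma adjusted p of 0.0397. The call was lost in 9 of 17 alternative analyses, and the difference ran from -0.19 to -0.14 over them. It did not pass without any single 1 of the 3 Ly49C/I+ replicates (adjusted p 0.114, 0.0843 and 0.107), nor without Ly49G2+ replicate 1 (0.132) or 3 (0.114). Of its 13 probe sets 12 lay lower in Ly49C/I+ cells, and the 1 that did not was below the lower quartile of signal.

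Zbtb7b leaned the same way without passing. It read 8.90, 9.06 and 8.89 in Ly49C/I+ cells, against 9.09, 9.12 and 9.09 in Ly49G2+ cells. The arrays did not overlap, though Ly49C/I+ replicate 2 lay close to the Ly49G2+ arrays. The log2 difference was -0.15 ± 0.054 (SE, limma adjusted p = 0.127), with a 95% interval of -0.27 to -0.03. Without Ly49C/I+ replicate 2 it was -0.21 with an adjusted p of 0.0392. All 7 probe sets lay lower in Ly49C/I+ cells, 3 of them without overlap.

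**Figure D4:**
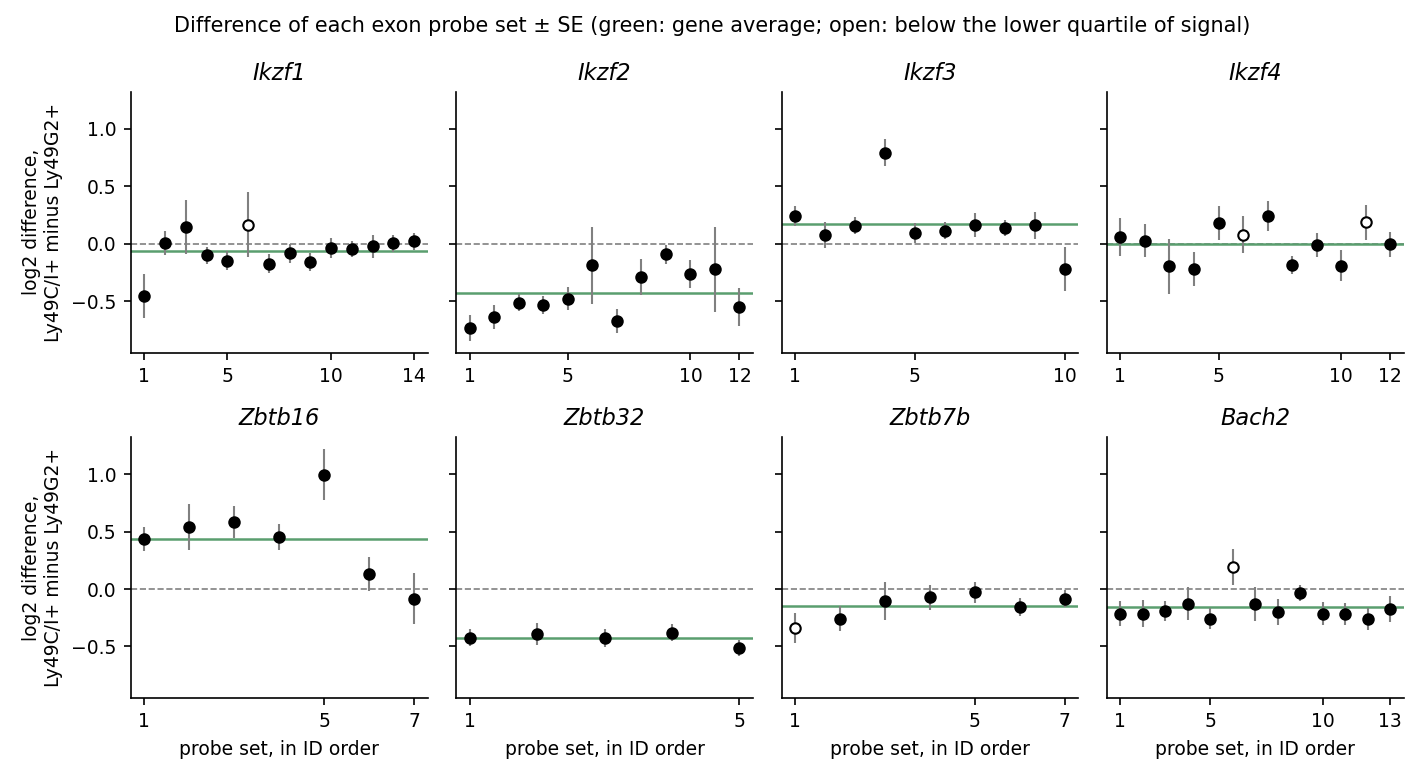
Log2 difference, Ly49C/I+ minus Ly49G2+, with its SE (vertical axis), of each exon probe set in ID order (horizontal axis) for the 8 genes; the green line is the gene average and open points lie below the lower quartile of all probe set signals. The probe sets of Zbtb32 lie between -0.51 and -0.38, whereas those of Ikzf3 hold 1 at 0.79 among others of -0.22 to 0.24.

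Single probe sets did not pass on their own. Adjusted over all 241383 probe sets, 0 of the 80 passed by limma, with 22 at an unadjusted p under 0.05 and a lowest adjusted p of 0.0828. The share of all probe sets that passed was 0.0261%, and the share at an unadjusted p under 0.05 was not computed. With a variance trend and robust moderation, 6 of the 80 passed, 3 of Ikzf2 and 3 of Zbtb32. Under that setting, 1037 of all 241383 probe sets passed as higher and 440 as lower in Ly49C/I+ cells. Of the 80, 5 lay below the lower quartile of signal (log2 5.84), namely 2 of Ikzf4 and 1 each of Ikzf1, Zbtb7b and Bach2.

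For single genes an exact two-sided permutation test over the 6 arrays cannot go below p = 0.1, which all 6 genes without overlap reached. In the authors' deposited table, which summarises each transcript cluster in another way, the ratios of Ly49C/I+ to Ly49G2+ were 0.714 for Ikzf2, 0.740 for Zbtb32 and 0.905 for Bach2. They were 1.12 for Ikzf3, 0.907 for Zbtb7b, 0.968 for Ikzf1 and 1.03 for Ikzf4 in the authors' deposited table. After Benjamini-Hochberg adjustment over the 35556 clusters of the authors' deposited table, Ikzf2 and Zbtb32 passed (adjusted p = 0.0207 each) and the other 6 did not.

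Among T cell markers, 3 chains of the T cell receptor complex and Cd8a were lower in Ly49C/I+ cells, as Ikzf2, Zbtb32 and Bach2 were. Cd3e, Cd3d and Cd3g had log2 differences of -2.23, -1.77 and -0.99, and Cd8a of -0.72 (limma adjusted p of 0.000337 or lower for each). The mean log2 signal of the 14 measured T cell markers was 8.03 to 8.11 on the Ly49C/I+ arrays and 8.44 to 8.48 on the Ly49G2+ arrays. The other 10 had log2 differences between -0.09 and 0.15 and did not pass. Among them, Cd247, the zeta chain of the same complex, averaged 9.41 in Ly49C/I+ cells, against 9.26 in Ly49G2+ cells, without overlap (limma adjusted p = 0.0709). Lat, an adaptor of its signalling, had a log2 difference of 0.10, also without overlap (limma adjusted p = 0.243), and Cd4, Cd5, Cd6, Cd8b1, Thy1, Cd28, Bcl11b and Themis lay between -0.09 and 0.10. The part of these T cell transcripts in the differences of Ikzf2, Zbtb32, Bach2 and Zbtb16 was not tested. Of 4 plasma cell markers 0 passed by limma, with 0 at an unadjusted p under 0.05. Of 9 myeloid and dendritic cell markers 1 passed, Cd14, with a log2 difference of -0.22, a call lost in 8 of 16 alternative analyses. As a background for these marker counts, 9.88% of all genes passed. Of 6 markers of other innate lymphoid cells Cxcr6 was higher in Ly49C/I+ cells, a call lost in 0 of 17 alternative analyses. Il1rl1 was lower there at low signal, 5.60 in Ly49C/I+ cells, against 5.81 in Ly49G2+ cells (limma adjusted p = 0.049). That call was lost in 11 of 15.

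Of 112 genes measured in 8 lists of partners, relatives and targets, 8 were higher and 5 were lower in Ly49C/I+ cells by limma, with a median log2 difference of 0.0022. For comparison with this and each list below, 6.16% of all 21442 genes were higher and 3.72% lower (9.88% in all). Among the 10721 genes of at least median signal, tested alone, 1606 were higher and 941 lower. None of the 6 Ikaros relatives, among them Ikzf5 and the corepressors Ctbp1 and Ctbp2, passed by limma, with 1 (Ctbp1) at an unadjusted p under 0.05. Of the 13 NuRD genes 1 passed, Rbbp4, a histone-binding subunit, with a ratio of 1.21 (limma adjusted p = 0.00941, lost in 2 of 17 alternative analyses). Of 5 SWI/SNF and Sin3 genes Sin3a, a corepressor scaffold, passed with a ratio of 1.15 (adjusted p = 0.0222), a call lost in 7 of 17 alternative analyses. The cereblon ubiquitin ligase, which degrades Ikaros proteins in human cells in the presence of thalidomide analogues, had 0 of 5 genes past the threshold by limma and 0 at an unadjusted p under 0.05.

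Other BTB zinc finger genes numbered 41 measured, of which 3 were higher and 0 lower in Ly49C/I+ cells. Over all genes these shares were 6.16% and 3.72%. Zbtb49, Zbtb45 and Zbtb8a had ratios of 1.14, 1.12 and 1.18 (limma adjusted p = 0.0259, 0.0398 and 0.0404). Each of these 3 calls was lost in 10 of 17 alternative analyses. Among 9 BTB corepressor and ligase genes, Bcorl1 stood at 0.869 of its Ly49G2+ level (limma adjusted p = 0.0384, lost in 9 of 17 alternative analyses), while Ncor1 and Hdac3 had ratios of 0.901 and 0.915 and did not pass.

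Of 7 genes in the BACH and small Maf list, Hmox1 was lower in Ly49C/I+ cells. It encodes haem oxygenase 1, known as a gene that BACH1 represses. Its log2 mean was 9.52 ± 0.048 in Ly49C/I+ cells, against 9.93 ± 0.056 in Ly49G2+ cells (SD, n = 3 each), a ratio of 0.752 (limma adjusted p = 0.000716). The Hmox1 call was lost in 2 of 17 alternative analyses, with the median over probe sets (log2 difference -0.23 in place of -0.41, adjusted p = 0.126) and in the authors' deposited table (-0.29, adjusted p = 0.116). Bach1 and Nfe2l2, with ratios of 0.937 and 0.947, did not pass.

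Of 27 genes known to be bound or controlled by these factors in lymphocytes, 3 were higher and 3 were lower in Ly49C/I+ cells. Over all genes 6.16% were higher and 3.72% lower. Cxcr6, a chemokine receptor of liver-resident lymphocytes and NKT cells, had a ratio of 1.54 (limma adjusted p = 0.000102). Myc and Runx1 had ratios of 1.23 and 1.22 (adjusted p = 0.00392 and 0.00481), calls lost in 2 and 1 of 17 alternative analyses. Irf4, which drives effector differentiation in T cells, had a ratio of 0.718 and Cd8a of 0.609 (adjusted p = 0.00038 and 0.000337). S1pr1, the receptor for leaving lymphoid tissue, had a ratio of 0.793 (adjusted p = 0.0117, lost in 5 of 15 alternative analyses) at low signal, 5.57 in Ly49C/I+ cells, against 5.91 in Ly49G2+ cells. The list is small and mixed, with activated and repressed targets of several factors, and its median log2 difference was -0.03.

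**Figure D5:**
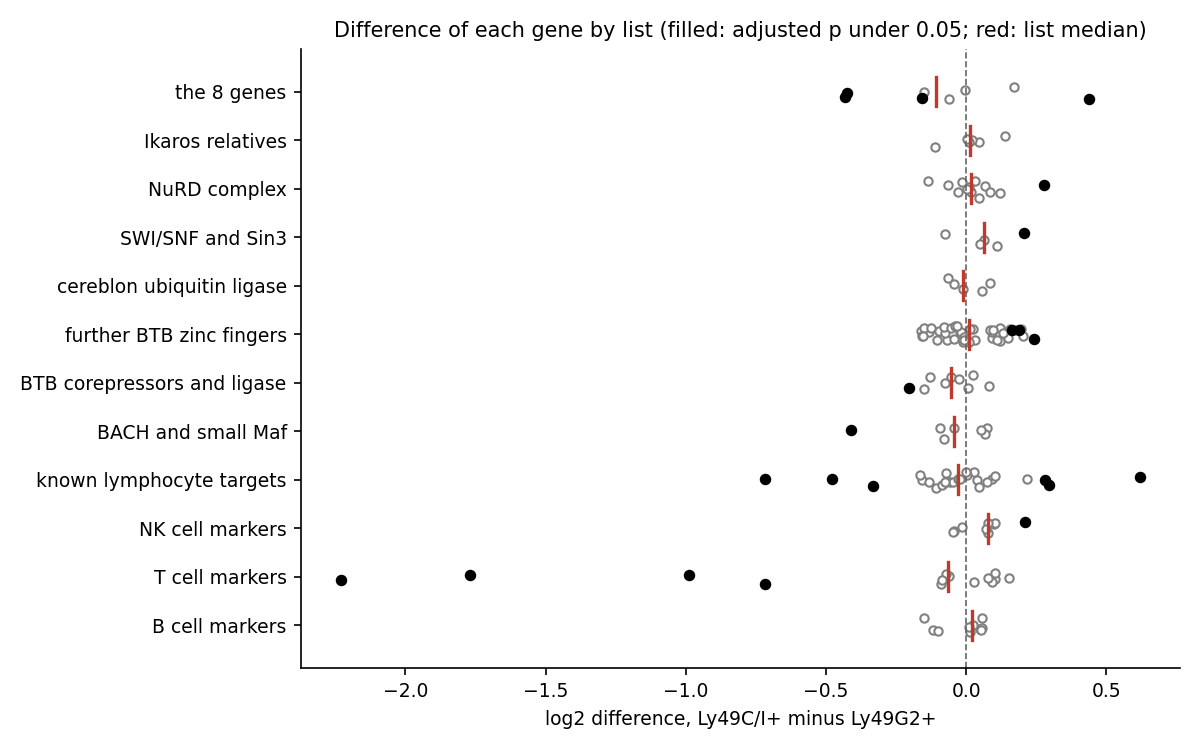
Log2 difference, Ly49C/I+ minus Ly49G2+ (horizontal axis), of each gene in the 8 genes, their related lists and 3 marker lists (rows); filled points have a limma adjusted p under 0.05 and red bars are list medians. The genes of most lists lie close to 0, whereas 4 T cell markers lie between -2.23 and -0.72.

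Genes whose pattern over the 6 arrays was most like that of a called gene were looked for among 10713 genes of at least median signal. The 6 points of each Pearson r share their arrays and lie in 2 groups apart, so r is given as a description with no p. For Zbtb16 the highest r belonged to Lbr, a receptor of the inner nuclear membrane, Dtymk, thymidylate kinase, and Dtl, a substrate receptor of the CUL4 ubiquitin ligase (0.999, 0.999 and 0.996). For Ikzf2 they were Vat1, Slc38a7 and Gstp3 (0.996, 0.994 and 0.994). For Zbtb32 they were Cd3g, Slc24a3 and Irf8 (0.999 each), and for Bach2 Anxa3, Epdr1 and Ceacam1 (0.9995, 0.999 and 0.997). The like genes of Zbtb16 were higher in Ly49C/I+ cells and those of the other 3 lower, as follows from the choice.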

How the data were processed

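RNA (100 ng per sample) from 6 samples was hybridised to Affymetrix arrays. The submitters' processing notes name Partek and RMA, whose versions and settings are not given in the sources used here. The authors deposited log2 values of exon-level probe sets per array. They also deposited a table with log2 group means, p-values, linear ratios, a signed fold score and other ANOVA values per transcript cluster.

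Probe sets were joined to clusters by the unbroken run of ID numbers (241383 placed, 193 left out). Across clusters, joined and deposited differences correlated at r = 0.977. Symbols were updated through RefSeq accessions (21020 matched). Log2 values were averaged per gene, which gave 21442 genes. Differences are Ly49C/I+ minus Ly49G2+, tested by lmFit and eBayes of limma 3.58.1 under R 4.3.3 (two-sided, Benjamini-Hochberg over all genes, threshold 0.05). Probe sets were tested likewise, and diffSplice tested unequal differences within a cluster. Both tests were tried on simulated data with independent errors. Such data cannot show how diffSplice does where probe sets of a gene vary together from array to array. Alternatives covered moderation, normalization, filters, probe set summary, array weights, a block for the replicate number, left-out arrays and the authors' p-values. Python 3.11.15, pandas 2.3.3, numpy 2.4.6 and matplotlib 3.10.9 were used.

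The members and lists were chosen with earlier results of these data known. Named list genes are those that passed, up to 8 per list, or the 3 of lowest p where fewer than 3 passed, and some of these are not printed. Others are named after their values were seen. With 3 arrays a subset, their number limits the precision. Trac, Trbc1, Tcrg-C1 and Zbtb9 matched no gene tested.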

Additional observations from a re-analysis of the deposited data

How the results depend on the processing

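Over 17 alternative analyses Ikzf2 and Zbtb32 kept their direction and their side of the threshold, Zbtb16 missed it in 1, and Bach2 in 9. Of the 8 genes, those higher in Ly49C/I+ cells numbered 2 with a variance trend and robust moderation, after quantile normalization again, with either filter on signal and with array weights, where Ikzf3 passed too, and 0 with the authors' deposited p-values. Left-out arrays gave 1 higher, and 2 to 3 lower. Genes higher in Ly49C/I+ cells over the whole table numbered 554 without variance moderation, 460 with the median over probe sets, 542 with the authors' deposited p-values and 859 to 1112 with 1 array left out, against 1321. Genes lower there numbered 344, 219, 345 and 410 to 765 under the same settings, against 797. Among the 112 listed genes, those higher in Ly49C/I+ cells numbered 4 without moderation, 4 with the median, 5 with the authors' p-values and 4 to 7 with 1 array left out, against 8. Those lower there numbered 9 with the trend, 2 with the median and 3 to 5 with 1 array left out, against 5. Probe sets of the 8 genes that passed numbered 6 with the trend and 0 with 1 array left out, and 0 to 1 of the 8 genes passed diffSplice with 1 array left out. diffSplice takes no variance trend, so robust moderation alone was run there. The cause of these changes was not tested, except that left-out arrays and filters change the number of samples or genes.

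Deviations from the subset means correlated at -0.0763, -0.186 and -0.0457 between same-numbered replicates, and at -0.143 to 0.186 between differently numbered ones. With 3 arrays a subset, whose deviations sum to 0, this cannot settle whether the replicate numbers pair the samples. With the replicate block, 981 genes were higher and 495 lower in Ly49C/I+ cells, 4 listed genes were higher, and Bach2 had an adjusted p of 0.107. The block gave a log2 difference of -0.43 for Ikzf2, -0.43 for Zbtb32 and 0.44 for Zbtb16, which all passed.

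Signs turned only for genes that did not pass. The log2 difference of Ikzf4 was 0.0048 with array weights, 0.042 in the authors' deposited table, and -0.030 to 0.018 with 1 array left out. With the median over probe sets Gfi1b stood at 0.067, Sin3b at 0.13 and Cd79b at 0.16, and Mzb1 ran from -0.030 to 0.11 with 1 array left out.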
